A study of Mus musculus with 9 samples.

Results

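The genes described here encode the protein components of the cytosolic ribosome, taken by symbol from a table of read counts for 18956 genes. A gene was a member if its symbol held Rpl or Rps followed by a digit, or was Rplp0, Rplp1, Rplp2 or Rpsa, with the Rps6k kinases (10 symbols) and rows named as pseudogenes (124 symbols) left out. This gave 90 members, 52 named for the large subunit and 38 for the small subunit. Of these, 89 passed the filter on low counts (51 large and 38 small) and Rpl32l did not. The 89 comprise 77 canonical ribosomal protein genes (46 large and 31 small) and 12 others, which are paralogs (Rpl7l1, Rpl22l1, Rpl36al, Rps27l), copies of a canonical gene (such as Rps27rt, Rps4l and Rps3a3) and Rps19bp1, which encodes a protein that binds Rps19 and is not part of the ribosome.

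Bulk RNA was sequenced from mouse brain tissue labelled as the anterior paraventricular nucleus of the thalamus, a midline thalamic nucleus. All animals were BALB/c mice, and 3 groups of 3 libraries were made. The first group had been exposed to social defeat on 5 days and had been given (2S,6S)-HNK, a hydroxynorketamine formed from ketamine and called SHNK here. The second group had the same defeat and saline, and the third was not stressed and had saline. No source used here gives age, sex, dose or time of sampling. Whether a replicate is 1 animal, a pool or a repeat library is not stated in the labels, so p-values measure only the spread between the 3 libraries of each group, which may be technical.

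Ribosomal proteins are held in a large and a small subunit around the ribosomal RNAs, and the small subunit reads the messenger RNA while the large subunit forms the peptide bond. Cells make nearly all of them in matched amounts, and surplus protein that is not built into a subunit is broken down. Most of their messenger RNAs begin with a run of pyrimidines, the terminal oligopyrimidine or TOP motif, through which mTOR signalling and the protein Larp1 set their translation and stability. In neurons they also serve local protein synthesis in dendrites and axons.

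Total counts ran from 32307869 to 51569143 per library, and the lowest count of any gene in any library was 1. The 12 markers listed for neurons of this nucleus had a mean log2 CPM between 4.36 and 4.82 in the 9 libraries. By group it was 4.44 ± 0.09 in SHNK, 4.70 ± 0.11 in stressed saline and 4.57 ± 0.10 in non-stressed saline (SD, n = 3 each). The SHNK values (4.36 to 4.54) lay below those of stressed saline (4.62 to 4.82), while the summed CPM of these markers overlapped. CPM is the count as a share of the scaled library total. Since no gene had a count of 0, the presence of a marker does not tell the tissue. Markers of tissue next to this nucleus also differed between the groups. Of 15 habenula markers listed, 14 had counts. The mean log2 CPM of 14 habenula markers was 2.04 ± 0.23 in SHNK, 5.32 ± 0.71 in stressed saline and 3.41 ± 0.53 in non-stressed saline (SD, n = 3 each), and their summed level ran from 726 to 933, from 852 to 1421 and from 681 to 729 CPM in that order. For 15 markers of ependyma and motile cilia the mean was 3.02 ± 0.30, 3.88 ± 0.26 and 2.80 ± 0.11 in that order. In bulk RNA, fewer cells of a type and less RNA per cell cannot be told apart. The part of these cell types in the values of the ribosomal protein genes was not tested.

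The start regions of 65 of the 90 members had an entry in the RefSeq promoter table for GRCm38.p6. CTTTC, a pyrimidine string of the kind that opens TOP messenger RNAs, was searched from 100 bases before to 50 bases after the annotated start, and was on the coding strand in 35 of the 65 (53.8%), against 18.1% of all 27025 entries. On the opposite strand it was in 18.5% of members and 17.3% of all entries. CCGGAAG, which can share its first base with the last of CTTTC, was on the coding strand in 23.1% of members and 3.75% of all entries, and on the opposite strand in 6.15% and 3.59%. Both letter strings were chosen after the sequences had been seen, and a match describes the letters and not a site in use. The windows of 30 bases shown here are those nearest the annotated start among the genes the text describes. They are read 5′ to 3′ on the coding strand, with the CTTTC nearest that start in capitals. Counting the start as 1, its first base is at 1 in Rplp2 and Rps27rt, 2 in Rps27, 8 in Rps26 and 10 in Rpl13a. In Rpl13, Rpl4 and Rpl5 it lies 11, 17 and 18 bases before the annotated start.
Rplp2, chr7:141447639-141447668, plus strand: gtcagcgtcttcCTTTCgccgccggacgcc
Rpl13a, chr7:45128719-45128748, minus strand: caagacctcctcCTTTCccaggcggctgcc
Rpl13, chr8:123102327-123102356, plus strand: gacgtcacttccCTTTCgcctgattttgat
Rpl4, chr9:64173358-64173387, plus strand: caagtgacaagtCTTTCcttttcctgtggg
Rpl5, chr5:107900498-107900527, plus strand: cctacagccactCTTTCtcacgtcgcttgc
Rps26, chr10:128626482-128626511, minus strand: ccgccggatcctCTTTCgagtcttggctcc
Rps27, chr3:90213630-90213659, minus strand: ccgctttcgctcCTTTCcggcggtgacgac
Rps27rt, chr9:114982722-114982751, minus strand: acttatcccttgCTTTCcggcggtgacgac
Rps27 and Rps27rt, a copy on another chromosome, share 18 of 18 bases from the motif on and 4 of the 12 before it.

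Members were among the abundant genes of the tissue and differed widely from each other. Per kilobase of transcript, the mean level over all 9 libraries was 483 CPM for Rpl13a, a large subunit protein, 478 for Rpl3, which lies near the peptidyl transferase centre, and 454 for Rpl13. On the same per-kilobase scale it was 414 CPM for Rps9 and 304 for Rps3, both small subunit proteins near the entry of the messenger RNA channel. Rpl41, the smallest ribosomal protein, had 316 CPM per kilobase, while Rpl22, an RNA-binding protein of the large subunit, had 16.4 and Rpl29 had 11.7. Several copies were low, with 6.04 CPM per kilobase for Rps27rt, 6.17 for Rpl37rt and 4.95 for Rpl6l. The copies Rps3a2 and Rps4l were higher, with a mean log2 CPM of 5.87 and 4.56. On that scale Rps27rt had 1.19 and the canonical Rpl29 had 2.93. The paralog Rpl7l1 had 79.2 CPM per kilobase beside 166 for Rpl7. How reads that fit several near-identical copies were counted is unknown from the sources used here, so the values of members with copies or pseudogenes are uncertain. The pseudogene rows together held between 597 and 775 CPM per library, against 7442 to 10167 CPM for the members.

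The library set the level of the whole family more than the group did. All members together took 0.834, 0.948 and 0.910% of counts in SHNK replicates 1, 2 and 3, against 0.827, 0.885 and 0.978% in stressed saline and 0.754, 1.005 and 0.860% in non-stressed saline. The mean log2 CPM of the 51 large subunit genes was 6.29 ± 0.12 in SHNK, 6.20 ± 0.12 in stressed saline and 6.20 ± 0.23 in non-stressed saline (SD, n = 3 each). For the 38 small subunit genes it was 5.74 ± 0.11, 5.69 ± 0.13 and 5.67 ± 0.26 in that order. The groups overlapped on both subunits, and the non-stressed saline libraries held both the lowest and the highest value.

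**Figure D1:**
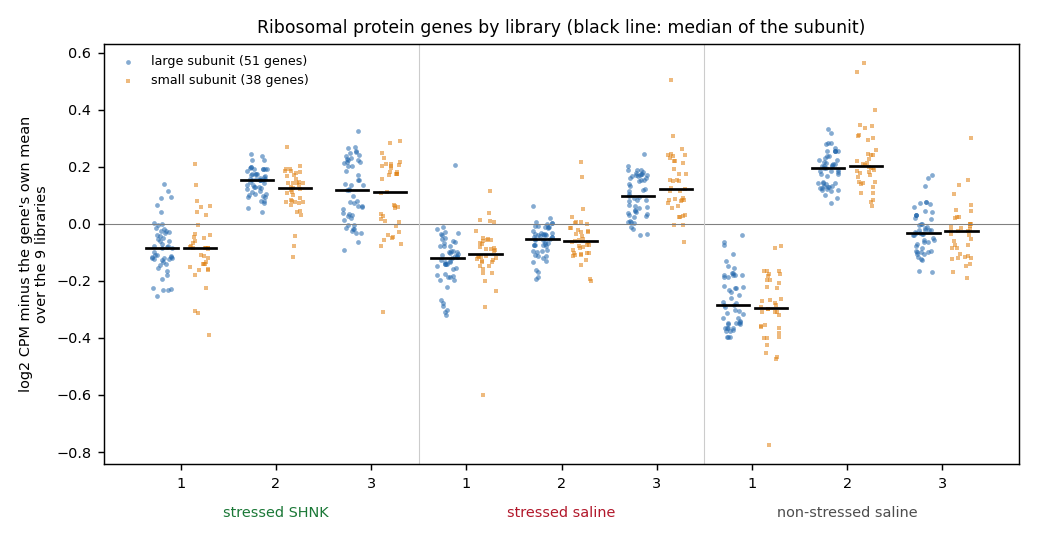
Log2 CPM of each of the 51 large and 38 small subunit members minus the gene's own mean over the 9 libraries, 1 point per gene, by library and group, with the subunit median as a black line. Non-stressed saline replicate 1 has the lowest and non-stressed saline replicate 2 the highest medians for both subunits, and the groups overlap.

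Nearly every member followed this library pattern. In SHNK, 14, 86 and 70 of the 89 members stood above their own mean over the 9 libraries in replicates 1, 2 and 3, against 6, 14 and 82 in stressed saline and 0, 89 and 27 in non-stressed saline. Non-stressed saline replicate 1 was the lowest of all 9 libraries for 76 members, and the highest was non-stressed saline replicate 2 for 43 members, SHNK replicate 3 for 28 and SHNK replicate 2 for 9. Non-stressed saline replicate 2 was above replicate 1 for all 89 members, by a median of 1.40-fold (range 1.08 to 2.53), while over the 5778 tested genes averaging a log2 CPM of 5 or more it was above replicate 1 in 47.8%, with a median of 0.990-fold. Some other lists differed between the same libraries too. The mean log2 CPM in non-stressed saline replicates 2 and 1 was 7.36 and 6.93 for nuclear genes of oxidative phosphorylation, 6.02 and 5.75 for the mitochondrial ribosome and 1.08 and 0.44 for the ribosomal protein pseudogene rows. It was 5.44 and 5.81 for 8 nuclear noncoding RNAs, in the opposite direction. Other lists differed less, with 7.19 and 6.99 for other TOP messenger RNAs and 7.22 and 7.15 for translation factors. Ribosome assembly genes had 5.57 and 5.60, and the mTOR and S6 kinase list 4.78 and 4.83.

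Within groups, the SD of log2 CPM had a median of 0.187 over members and 0.115 over those 5778 genes. Replicate 1 was the lowest of its group for 80 of 89 members in SHNK, 66 in stressed saline and 88 in non-stressed saline. Over the same 5778 genes, the deviations of the replicate 1 libraries from their group means correlated at 0.43, 0.28 and 0.15 between groups. A shared batch is not stated in the labels and was not tested. In the stressed saline and the non-stressed saline group the order of the family's level was the reverse of the order of total counts, and in SHNK it was not. The part of depth was not tested.

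Other genes of short transcripts also differed between the libraries. The median transcript length of tested members was 714 bases. Among other protein-coding genes averaging a log2 CPM of 5 or more, the 467 of over 500 to 750 bases deviated from their own mean by a median log2 of -0.02, 0.09 and 0.13 in SHNK replicates 1 to 3. The same quantity was -0.10, -0.07 and 0.04 in stressed saline and -0.09, 0.07 and -0.02 in non-stressed saline. Members deviated by -0.09, 0.14 and 0.12 in SHNK, by -0.11, -0.06 and 0.12 in stressed saline and by -0.29, 0.20 and -0.03 in non-stressed saline. Genes over 4000 bases stood at 0.10 in non-stressed saline replicate 1, where the members were lowest, and at 0.0079 in replicate 2, where the members were highest. The classes followed no strict order of length, since genes up to 500 bases stood at 0.017 in SHNK replicate 3. The part of length or RNA quality in the members' values was not tested.

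**Figure D2:**
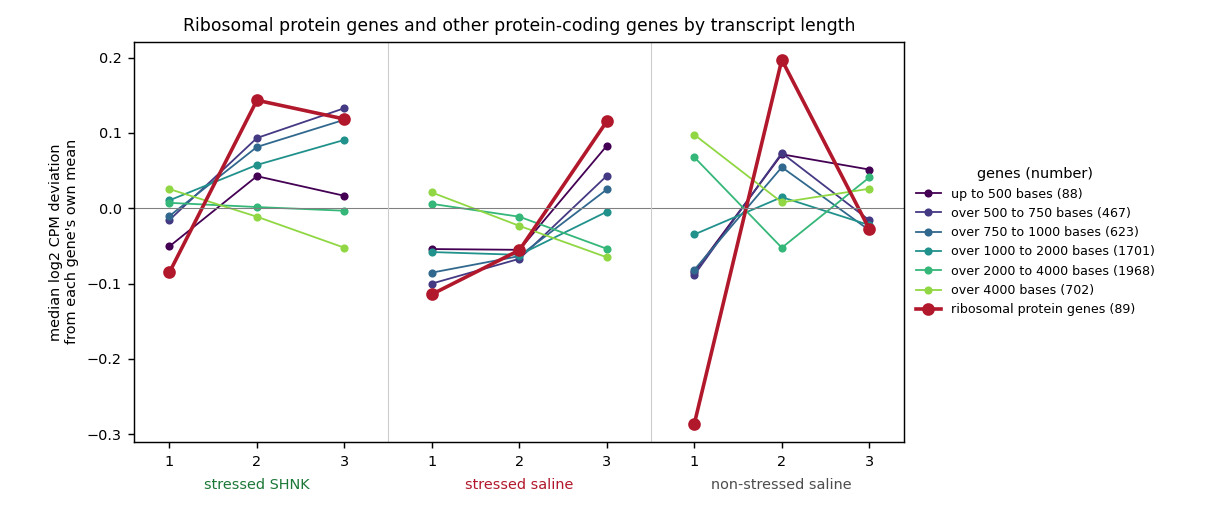
Median deviation of log2 CPM from each gene's own mean over the 9 libraries, for the 89 members and for other protein-coding genes in 6 classes of transcript length. Classes up to 2000 bases move the same way as the members between non-stressed saline replicates 1 and 2, by less.

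Once the family's mean in each library was taken off, most members varied little. The SD of what remained had a median of 0.077 over the 77 canonical members, beside 0.17 for their log2 CPM itself. Rps9 (chromosome 7, 3703954 to 3706897, GRCm38.p6) stood apart, with 0.35 against 0.14 for the next canonical member, Rps12. Rps9 had 248, 393 and 340 CPM in SHNK, 215, 378 and 462 CPM in stressed saline and 190, 482 and 363 CPM in non-stressed saline. Replicate 1 was the low library in each group and the groups overlapped fully. In log2 CPM itself, with the family's mean left in, Rpl4 and Rpl3 varied little. Rpl4, which lines the exit tunnel of the large subunit, had 396, 444 and 419 CPM in SHNK, 382, 390 and 420 CPM in stressed saline and 375, 443 and 370 CPM in non-stressed saline. Rpl4 differed by 1.20-fold between its highest and lowest library, against 1.16-fold for Rpl3, 2.53-fold for Rps9 and a median of 1.45-fold over members. Members with CTTTC near the start (35) and without it (29 tested) had a median SD over libraries of 0.17 each.

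The large subunit mean exceeded the small subunit mean by 0.53, 0.56 and 0.55 log2 in SHNK, by 0.51, 0.52 and 0.49 in stressed saline and by 0.56, 0.49 and 0.53 in non-stressed saline. Over the canonical genes, without the copies, paralogs and Rps19bp1, the excess was 0.16 in each SHNK library. It was 0.14, 0.12 and 0.09 in stressed saline and 0.18, 0.12 and 0.14 in non-stressed saline. On both sets the SHNK and stressed saline values did not overlap and non-stressed saline reached into both. The summed CPM of the large over the small subunit was 1.72 to 1.76 in SHNK, 1.63 to 1.75 in stressed saline and 1.64 to 1.78 in non-stressed saline, so on that scale all 3 groups overlapped.

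**Figure D3:**
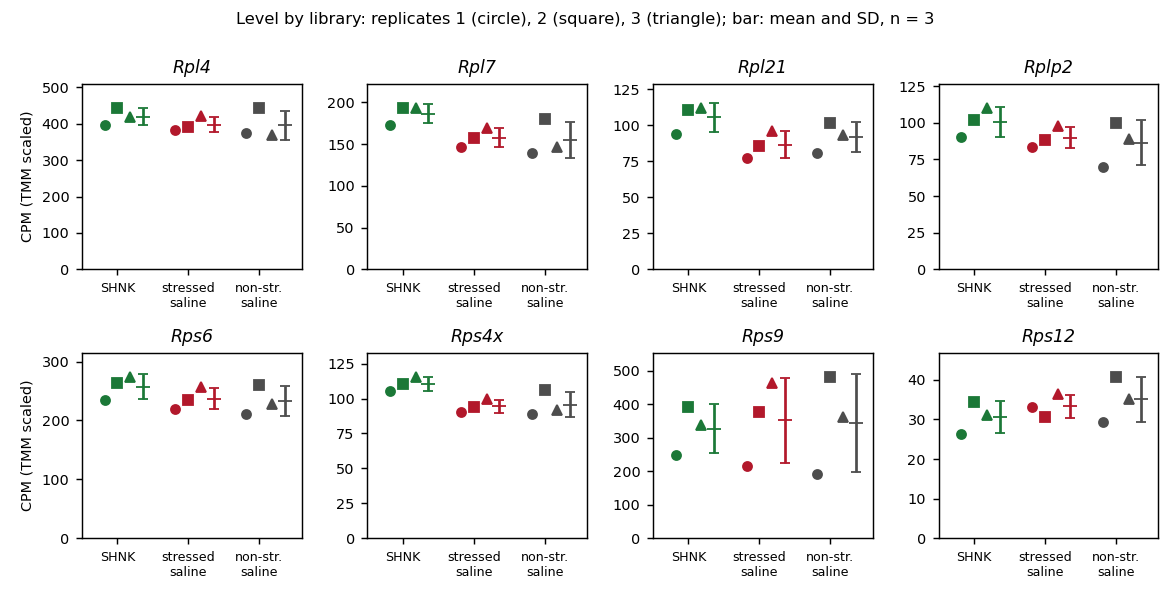
Level (CPM, scaled by TMM) of 8 members in each library, with the mean and SD of each group (n = 3). Rpl7 and Rps4x are higher in all SHNK libraries than in any stressed saline library, and Rps9 has the widest spread within groups.

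The effect of social defeat was read from stressed saline against non-stressed saline. No member passed the test: edgeR's quasi-likelihood test with Benjamini-Hochberg adjustment over 18194 genes called 0 of 89 members, while it called 1.17% of all tested genes. At an unadjusted p under 0.05 the count was 0 of 89 (9.45% of all genes), and the lowest adjusted p was 0.867 in edgeR. DESeq2, which called 2.59% of all genes, and limma voom, which called 0.561%, also called 0 members. The groups were apart, with no overlap, for 0 members, against 12.9% of all tested genes. The median log2 fold change was -0.0034 over large subunit genes and 0.016 over small subunit genes, beside -0.017 over all tested genes, and the median standard error of a member was 0.12. A p that misses the threshold does not show that the values did not differ.

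By role, the stalk proteins Rplp0, Rplp1 and Rplp2, which recruit the GTPases of translation, had log2 differences of 0.05 ± 0.09, 0.03 ± 0.13 and 0.06 ± 0.12 (standard error) between stressed and non-stressed saline. Rps6, the small subunit protein that S6 kinases phosphorylate under mTOR, had 220, 235 and 257 CPM in stressed saline and 211, 261 and 228 CPM in non-stressed saline, a log2 difference of 0.02 ± 0.10. Rpl5 and Rpl11, which bind 5S ribosomal RNA and restrain Mdm2 when free, had -0.07 ± 0.10 and 0.05 ± 0.11. The widest differences were those of copies, 0.23 ± 0.23 for Rps27rt and -0.19 ± 0.17 for Rps4l. Among canonical members they were 0.11 ± 0.16 for Rps29 and -0.17 ± 0.15 for Rpl29. In edgeR the adjusted p of each of these was 0.867 or more.

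SHNK against stressed saline asked what the drug did in defeated mice. No member passed in edgeR, where many other genes did: 0 of 89 were called by edgeR's quasi-likelihood test, against 6.41% of all tested genes. At an unadjusted p under 0.05, 5 members were higher and 0 lower, where 10.6% of all genes were higher and 12.8% lower. The 5 were Rpl21, Rpl7, Rpl5, Rpl36al and Rps4x. DESeq2 called 0 members and 11% of all genes, and limma voom with quality weights called 1 member, Rpl21, and 13.1% of all genes. The groups did not overlap for 7 members, all higher in SHNK, against 14.4% of all genes apart and higher and 15.9% apart and lower. They were Rpl5, Rpl7, Rpl7l1, Rpl29, Rps4x, Rps4l and Rps3a3, the last named after its values were seen.

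More members lay above than below 0. In SHNK against stressed saline 41 of 51 large subunit genes and 25 of 38 small subunit genes were above 0, against 48.7% of all tested genes. The median log2 fold change was 0.10 over large and 0.049 over small subunit genes, beside -0.0091 over all tested genes. Other protein-coding genes averaging a log2 CPM of 5 or more had a median of 0.047 up to 500 bases (17 members are of this length), 0.10 at over 500 to 750 bases (32 members), 0.11 at over 750 to 1000 bases (25 members) and 0.060 over all lengths. Both subunit medians lay among these values. Of these other genes, 56.8%, 73.2%, 69.8% and 61.8% lay above 0 in that order of lengths. By limma voom with quality weights the medians were 0.13 over large and 0.085 over small subunit genes. Scaling by total counts alone moved the median of all genes to -0.075 and the members' medians to 0.039 and -0.018, so the direction of the small subunit depends on the scaling.

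**Figure D4:**
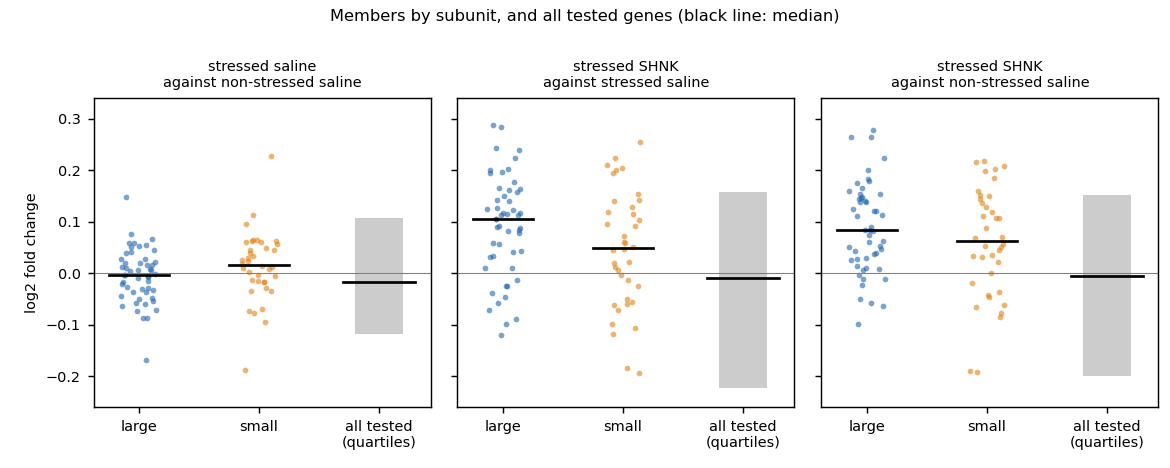
Log2 fold change of each tested member by subunit in the 3 comparisons, with the median as a black line and the quartiles of all tested genes as a grey bar. Members lie between -0.19 and 0.29, and the large subunit median is 0.10 in SHNK against stressed saline.

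Among large subunit genes, Rpl21 (chromosome 5, 146832890 to 146837032) had 93.5, 110 and 112 CPM in SHNK, 77.3, 85.5 and 96.1 CPM in stressed saline and 80.6, 101 and 93.0 CPM in non-stressed saline. SHNK and stressed saline overlapped at SHNK replicate 1, and the log2 fold change between them was 0.29 ± 0.11 (adjusted p = 0.129, edgeR), with 0.0408 by limma voom. Rpl7 (chromosome 1, 16101295 to 16104433) had 173, 193 and 193 CPM in SHNK, 147, 157 and 169 CPM in stressed saline and 139, 180 and 147 CPM in non-stressed saline. All 3 SHNK libraries of Rpl7 were above the stressed saline libraries, with a log2 fold change of 0.24 ± 0.10 (adjusted p = 0.161, edgeR). Its paralog Rpl7l1 had 104, 111 and 108 CPM in SHNK and 98.1, 98.3 and 102 CPM in stressed saline, 0.11 ± 0.07 (adjusted p = 0.388, edgeR).

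Rpl5 had 138, 161 and 166 CPM in SHNK against 132, 125 and 137 CPM in stressed saline, a log2 fold change of 0.24 ± 0.10 (adjusted p = 0.168, edgeR). Its libraries were apart by less than 1 CPM. Rpl11, its partner in the 5S particle, had 0.12 ± 0.11. The paralog pair Rpl36al and Rpl36a stood at 0.29 ± 0.13 and 0.08 ± 0.13, and Rpl22l1 and Rpl22 at 0.20 ± 0.12 and 0.04 ± 0.12; the difference within a pair was not tested. Rpl10, which joins late in assembly, had 0.11 ± 0.11, and Rpl13a, a large subunit protein released for translational control in human cells, had -0.05 ± 0.12. The lowest large subunit values were -0.12 ± 0.21 for the copy Rpl37rt and -0.10 ± 0.14 for Rpl37.

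The stalk gene Rplp2 had 90.0, 102 and 110 CPM in SHNK, 83.7, 88.1 and 97.8 CPM in stressed saline and 69.7, 100 and 89.2 CPM in non-stressed saline. The SHNK and stressed saline libraries overlapped and the log2 fold change was 0.17 ± 0.12, while Rplp0 and Rplp1 had -0.04 ± 0.09 and 0.03 ± 0.13. The stalk genes thus lay on both sides of 0.

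Among small subunit genes, Rps4x (chromosome X, 102184941 to 102189391) had 105, 110 and 115 CPM in SHNK, 90.0, 94.2 and 99.4 CPM in stressed saline and 89.1, 106 and 91.9 CPM in non-stressed saline. All SHNK libraries were above the stressed saline libraries, with a log2 fold change of 0.22 ± 0.09 (adjusted p = 0.135, edgeR). Rps6 had 234, 264 and 274 CPM in SHNK against 220, 235 and 257 CPM in stressed saline, 0.12 ± 0.10, and the libraries overlapped. Rpsa, a small subunit protein also known as the laminin receptor precursor, had -0.05 ± 0.10. Rps27a, made as a ubiquitin fusion, had 0.05 ± 0.12, and Rps19, the gene most often mutated in human Diamond-Blackfan anaemia, had -0.07 ± 0.14. Rps19bp1, the namesake outside the ribosome, had 0.26 ± 0.12, and the lowest values were -0.19 ± 0.23 for Rps27rt and -0.18 ± 0.37 for Rps12l1.

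Other lists of the translation machinery held called genes in SHNK against stressed saline. Of all 18194 tested genes, 446 rose and 721 fell there (6.41% in either direction). At an unadjusted p under 0.05 (edgeR), 10.6% of all genes were higher and 12.8% lower. The count higher was 30 of 78 mitochondrial ribosomal protein genes, 12 of 32 ribosome assembly genes and 15 of 38 translation factors. The count lower was 0, 0 and 2 in that order. The calls below are by adjusted p. Of 78 mitochondrial ribosomal protein genes, 4 rose and 0 fell, with a median log2 fold change of 0.19. Mrpl49 had 160 ± 10 CPM in SHNK and 126 ± 7.1 CPM in stressed saline (SD, n = 3 each), a rise of 0.35 ± 0.08 (adjusted p = 0.0222, edgeR). Of 32 ribosome assembly genes 2 rose and 0 fell (median 0.13). They were Nmd3, the export adaptor of the large subunit, by 0.39 ± 0.09, and Brix1 by 0.36 ± 0.09 (adjusted p = 0.0204 and 0.0374, edgeR).

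Of 38 translation factors 3 rose and 0 fell (median 0.13), namely Eif2s2 by 0.41 ± 0.09, Eif3m by 0.35 ± 0.08 and the helicase Eif4a1 by 0.28 ± 0.07 (adjusted p from 0.0183 to 0.0332, edgeR). In the mTOR and S6 kinase list of 24, Rheb, the activator of mTOR, rose by 0.45 ± 0.09 and Pdcd4 by 0.31 ± 0.08. Eef2k, the kinase of elongation factor 2, had -0.52 ± 0.12 and Rps6ka4 -0.46 ± 0.13, and both fell (adjusted p from 0.0131 to 0.0492 for the 4, edgeR). The other 20 did not pass. Of 26 other TOP messenger RNAs 0 rose and 1 fell, Vim, a filament of glia and vessels, at -0.62 ± 0.13 (adjusted p = 0.0177, edgeR), with a list median of 0.15. Of 81 genes of oxidative phosphorylation 4 rose and 0 fell (median 0.16). At an unadjusted p under 0.05 (edgeR), 22 of these 81 were higher and 0 lower. The counts were 8 higher and 2 lower for the other TOP messenger RNAs, and 4 and 5 for the mTOR and S6 kinase list. The TOP list shares genes with the lists of translation factors, ribosome assembly and oxidative phosphorylation, so the counts of these lists are not separate.

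Fau, a ubiquitin-like fusion that carries a small subunit protein, had a log2 difference of 0.16 ± 0.13, and Rack1, a scaffold on the small subunit, had 0.14 ± 0.10, and neither was called. None of 13 snoRNA host genes was called by edgeR (0 also at an unadjusted p under 0.05, median 0.0029), nor of 93 tested pseudogene rows (0 unadjusted, median 0.027). Unadjusted, 10.6% of all genes were higher and 12.8% lower in SHNK against stressed saline. None of these lists on translation, mTOR, TOP messenger RNAs and oxidative phosphorylation had an edgeR call in stressed saline or SHNK against non-stressed saline. At an unadjusted p under 0.05 (edgeR) each had at most 2 members in the first, where 9.45% of all genes passed. In the second 7.31% of all genes were higher and 11% lower. There, the count higher was 25 of 78 mitochondrial ribosomal protein genes, 12 of 32 ribosome assembly genes, 11 of 38 translation factors, 14 of 81 genes of oxidative phosphorylation and 8 of 26 other TOP messenger RNAs. In the mTOR and S6 kinase list 3 of 24 were higher and 11 lower. Markers of cell types moved in SHNK against stressed saline as well. The habenula list had 1 rise and 12 falls of 14, ependyma 10 falls of 15, astrocytes 6 falls of 10, choroid plexus 3 falls of 9, neurons 3 rises of 10 and red blood cells 4 rises of 5. The list for neurons of the paraventricular thalamus had 2 falls of 12 (median -0.32), and endothelium and mural cells 1 fall of 10. Of 12 oligodendrocyte and 10 microglia markers 0 were called. The mean log2 CPM of the astrocyte markers was 7.08 ± 0.12 in SHNK and 7.66 ± 0.13 in stressed saline (SD, n = 3 each). The part of these markers' cell types in the list counts was not tested.

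SHNK against non-stressed saline asked whether treated, defeated mice differed from mice never stressed. It shares its libraries with the other comparisons. EdgeR's quasi-likelihood test called 0 of 89 members, and 0.0055% of all tested genes. At an unadjusted p under 0.05, 3 members were higher, Rpl7, Rpl23 and Rps4x, and 0 lower, where 7.31% of all genes were higher and 11% lower, and DESeq2 (5.46% of all genes) and limma voom (0.0055%) called 0 members. The groups did not overlap for 0 members, against 21.3% of all genes. The median log2 fold change was 0.084 over large and 0.063 over small subunit genes, with 43 of 51 and 28 of 38 above 0 where 49.2% of all genes were, beside a median of -0.0049 over all genes. By limma voom with quality weights both medians were 0.15, with 84 of 89 members above 0. By edgeR, other protein-coding genes averaging a log2 CPM of 5 or more had a median of 0.028 over all lengths. It was -0.0032 up to 500 bases, 0.084 at over 500 to 750 bases and 0.086 at over 750 to 1000 bases. The share above 0 was 55.4% over all lengths, and 50%, 69.0% and 65.7% in those classes in that order.

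In this comparison Rpl7 had 0.26 ± 0.10 (adjusted p = 0.183, edgeR) and Rps4x 0.21 ± 0.09 (adjusted p = 0.220, edgeR). Rpl23, a large subunit protein, had 78.8, 85.0 and 86.8 CPM in SHNK and 57.4, 80.3 and 69.0 CPM in non-stressed saline, 0.28 ± 0.12 (adjusted p = 0.245, edgeR). For all of these, non-stressed saline replicate 2 reached into the SHNK range. Rplp2 had 0.22 ± 0.12 and Rps6 0.14 ± 0.10. The lowest canonical member was Rps12, with 26.4, 34.5 and 31.2 CPM in SHNK, 33.1, 30.5 and 36.4 CPM in stressed saline and 29.3, 40.7 and 35.3 CPM in non-stressed saline. Its SHNK and non-stressed saline libraries overlapped, with -0.19 ± 0.13 between them (adjusted p = 0.472, edgeR).

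Relative to the mean of the family, the group means of Rps27rt differed most, by 0.28 log2, followed by Rps12 (0.27) and Rps12l1 (0.24). A setting added after the data had been seen scaled each library to the members. By construction it takes off any difference that the members share, so it cannot show a change of the whole family. With this setting edgeR called 0 members in each comparison and the lowest adjusted p was 0.526. On that scale it called 0.121% of all genes for defeat, 0.676% for SHNK within defeated mice and 0% for SHNK relative to unstressed mice, and 0 members were at an unadjusted p under 0.05. On that scale Rps12 stood at -0.27 ± 0.13 in SHNK against non-stressed saline and Rpl21 at 0.22 ± 0.12 in SHNK against stressed saline.

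Single libraries decided the direction of the family in the comparisons with the non-stressed group. In stressed against non-stressed saline, the median over large subunit genes was -0.11 without non-stressed saline replicate 1 and 0.11 without replicate 2, and that over small subunit genes was -0.093 and 0.15. Without stressed saline replicate 3 the medians were -0.078 over large and -0.060 over small subunit genes, against -0.0034 and 0.016 with all libraries. In SHNK against non-stressed saline the medians were -0.00059 and -0.059 without non-stressed saline replicate 1. Without replicate 2 they were 0.20 and 0.23, and 29 members were higher at an unadjusted p under 0.05, where 22.7% of all genes passed in either direction. There edgeR called 1 member, Rpl7, and 749 genes in all.

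In SHNK against stressed saline the medians stayed above 0 in all 9 fits that left out a library, from 0.056 to 0.17 for the large subunit and from 0.0045 to 0.13 for the small subunit, and 0 members were called in each. The count of the 89 members at an unadjusted p under 0.05 (edgeR) was 0 without stressed saline replicate 1 or SHNK replicate 3, and 11 without SHNK replicate 1. In these fits 18.6%, 14.8% and 24.6% of all genes passed in that order, in either direction.

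**Figure D5:**
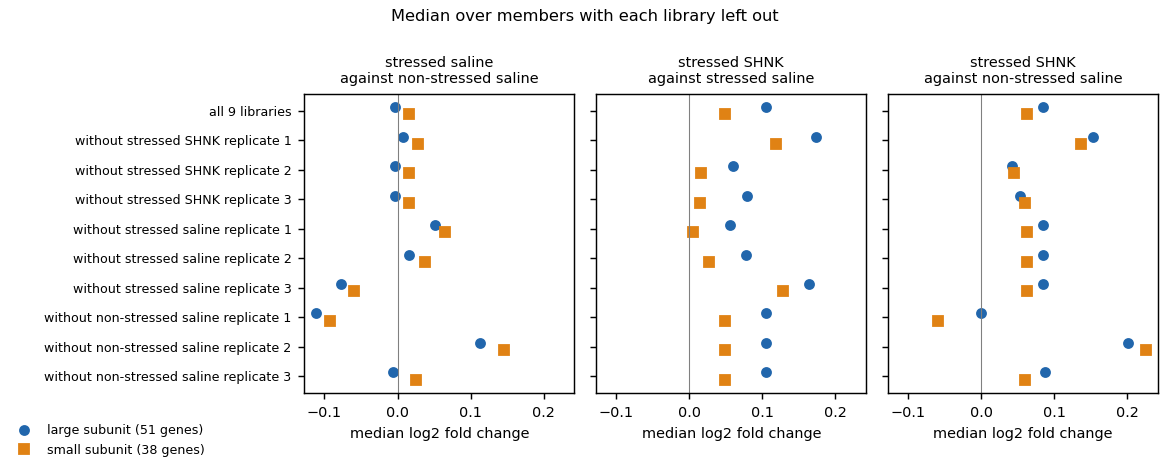
Median log2 fold change over the 51 large and 38 small subunit members with all 9 libraries and with each library left out. In both comparisons with the non-stressed group the medians are lowest without non-stressed saline replicate 1 and highest without replicate 2, while SHNK against stressed saline stays above 0.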

How the data were processed

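The authors deposited whole-number read counts for each gene symbol, with no normalization. StringTie, HISAT2 and Trimmomatic 0.38 and the builds GRCm38 and mm10 are named in the submitters' processing notes, with no role stated. Strandedness and the treatment of reads with several matches: not given in the sources used here. Per the labels, total RNA was taken through TruSeq library construction with the SMARTer kit for low input.

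The members and lists were chosen with earlier results of these data known. Genes were kept with filterByExpr (minimum count 10, minimum total 15; 18194 kept, 762 left out), scaled by TMM and tested in a single quasi-likelihood fit of all 9 libraries (edgeR 4.0.16, R 4.3.3), with Benjamini-Hochberg adjusted p over all tested genes and a threshold of 0.05. The common biological coefficient of variation was 0.132. Log2 CPM used a prior count of 2. Each list is described by counts and a median, with no test. Comparing replicates found no library deposited more than once.

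Named members were those called, the 2 highest and 2 lowest log2 fold changes and the 3 most and 2 least abundant per subunit, the 3 with the widest range of group means against the family, and a fixed set by role. A gene that the rule names is not reported here. Members outside this rule were named from their counts or spread. Transcript length is the median over GENCODE transcripts, and windows are from RefSeq. Alternatives were DESeq2 1.42.0, limma 3.58.1 voom with quality weights, other scalings and filters, fits of 2 groups, a replicate block and leaving out each library. The pipeline was tested on simulated data.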

Additional observations from a re-analysis of the deposited data

How the results depend on the processing

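Members called in edgeR numbered 0 in each comparison, and stayed 0 under DESeq2 size factors, upper-quartile scaling, TMM without the members, total counts alone, both other filters, fits of 2 groups and the DESeq2 test. Limma voom with quality weights called 1 member in SHNK against stressed saline (Rpl21, adjusted p = 0.0408). Leaving out each library gave 0 to 1 in SHNK against non-stressed saline, the 1 being Rpl7 without non-stressed saline replicate 2 (0.38 ± 0.09, adjusted p = 0.0388, edgeR), and 0 in the other comparisons. The cause was not tested. Between groups, the deviations of same-numbered libraries from their group means correlated at -0.44 to 0.43, with all 3 of number 1 above 0.1. Libraries of different number correlated at -0.68 to 0.43. Whether the numbers mark pairs or batches was not tested. With the replicate block 0 members were called in each comparison (lowest adjusted p 0.0686, edgeR) and 878 genes in all in SHNK against stressed saline, beside 1167. Counts over all genes moved by more than 1.5 times in some settings. For SHNK against stressed saline they were 2005 by DESeq2, 2377 by voom and 176 to 1385 without 1 library. For stressed against non-stressed saline they were 472, 102 and 40 to 306, beside 213. For SHNK against non-stressed saline they were 994 by DESeq2, 9 in the fit of 2 groups, 6 with the block and 0 to 749 without 1 library, beside 1. Of the single members' fold changes, 242 values changed sign without being called in either setting.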
